A study of Drosophila melanogaster with 4 samples.

Results

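BEAF (boundary element-associated factor) regions on chromosome arm 3R of Drosophila melanogaster were taken from a ChIP-seq map of 14 to 16 h embryos. Members were all rows of the combined replicate-set list that lie on 3R and are typed as significantly enriched. They numbered 1098 of the 5003 enriched regions on all sequences. The same filter left 924 regions in the list of replicate 1 and 981 in that of replicate 2, or 33.1 and 35.2 regions per Mb.

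The embryos were of the wild-type Oregon-R strain, for which the labels name no treatment, and were fixed with 1.8% formaldehyde. Chromatin was precipitated with BEAF-HB, an affinity-purified rabbit polyclonal antibody against residues 88 to 282 of BEAF. The labels write its targets as BEAF32A and BEAF42B, and once as BEAF32B. The isoforms cannot be told apart here. The series has 4 samples, 2 titled ChIP and 2 titled input DNA, and only the ChIP samples have region lists. Samples were grouped by title. In replicate 1 the descriptions go against the titles on both sides, since the ChIP sample is described as input DNA and the input sample carries the antibody text. Whether that pair was exchanged was not tested, and it bears on every replicate 1 value and on the combined list. Whole embryos mix many cell types, so a region may be bound in some of them only.

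BEAF is a zinc-finger protein of insulators, DNA elements that separate neighbouring chromatin domains, and it recognises clustered copies of the short motif CGATA. It is known for binding close to the promoters of broadly expressed genes, often between genes that are transcribed away from each other. BEAF was identified through its binding to scs', an element beside the hsp70 heat-shock genes, which lie on 3R. The same arm carries the Antennapedia and bithorax Hox gene complexes. The genome build of the lists is release 5. No sequence and no annotation of that build were used here, so regions are given by position and no gene is assigned to any of them.

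The 3 lists bear on each statement, and they are not independent, since the combined list was made from the replicates. With 2 ChIP replicates no test across samples can be run, and no p-value is given. Nothing in the labels says whether the replicates came from separate embryo collections. Without read counts in the lists, the depth behind each region is unknown. Intervals cover the counting of regions only, and neighbouring regions are not independent draws. Coordinates are release 5, counted from 1, with the centromere at the low-coordinate end of 3R, and each region is placed by its midpoint.

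The arm is 27.9 Mb long and carried 39.3 regions per Mb in the combined list (exact 95% Poisson interval 37.1 to 41.7). The 2 replicate lists averaged 34.1 ± 1.44 regions per Mb (SD, n = 2). Combined regions covered 2.79 Mb, or 9.99% of the arm, against 8.44% in replicate 1 and 9.15% in replicate 2. The arm held 22.9% of the regions on the 5 large arms and makes up 23.4% of their length. Together the other 4 large arms had 40.7 regions per Mb (39.4 to 42.0), an interval that overlaps that of 3R.

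Of the 1098 regions, 882 (80.3%, exact 95% binomial interval 77.9 to 82.6) overlapped an enriched region in both replicate lists, against 77.8% of the combined regions on all sequences. A further 29 were found in replicate 1 only, 89 in replicate 2 only and 98 (8.93%) in neither. Read from the replicates, 893 of the 924 replicate 1 regions (96.6%) overlapped a replicate 2 region on the arm. In the other direction 887 of 981 (90.4%) did so. The replicate lists therefore differed mainly by the 94 replicate 2 regions without a counterpart, of which the highest score was 0.819. Among 866 regions matched one to one, midpoints lay a median of 34.5 bp apart and 90% of them within 144.5 bp.

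Dense and sparse stretches alternated along the arm. In the 27 whole 1-Mb windows, counts in the combined list ranged from 23 to 67 with a median of 40. The range was 18 to 53 in replicate 1 and 19 to 63 in replicate 2. Across windows the counts had a variance 3.61 times their mean in the combined list, 3.16 times in replicate 1 and 4.20 times in replicate 2, where a variance equal to the mean would correspond to independent, even placement. Counts of the 2 replicates followed each other over the 27 windows (Spearman's rho = 0.98, Pearson's r = 0.98, given as a description of neighbouring windows of 1 arm).

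**Figure D1:**
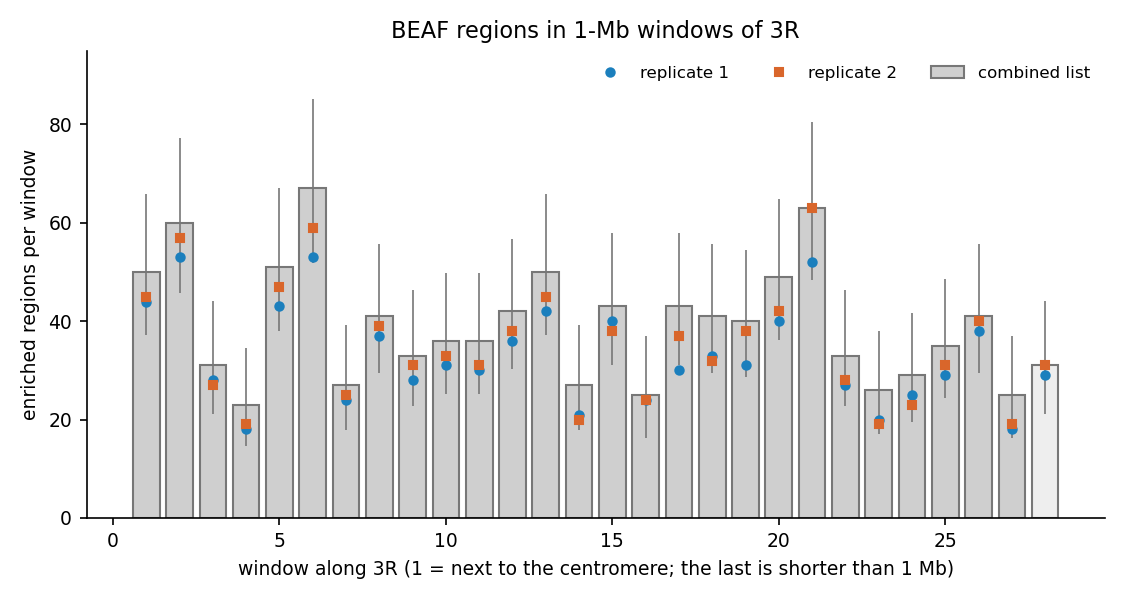
Number of enriched regions (vertical axis) in each 1-Mb window of 3R (horizontal axis, window 1 next to the centromere). Bars are the combined list with exact 95% Poisson intervals for counting, circles replicate 1 and squares replicate 2; the highest bars are windows 6, 21 and 2, with 67, 63 and 60 regions.

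The densest window was 3R:5000001-6000000, with 67 regions in the combined list, 53 in replicate 1 and 59 in replicate 2. Regions took up 17.0% of it, and the median distance between neighbouring midpoints was 7.78 kb. Next came 3R:20000001-21000000 with 63 regions, of which replicate 1 had 52 and replicate 2 also 63, and a median distance of 6.81 kb. The third was 3R:1000001-2000000 with 60 regions (53 and 57) and a median distance of 6.72 kb. These windows held ranks 1 to 3 in both replicate lists, with a tie for rank 1 in replicate 1.

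The sparsest window was 3R:3000001-4000000, with 23 regions in the combined list, 18 in replicate 1 and 19 in replicate 2. Its neighbours lay a median of 19.6 kb apart, and its regions covered 5.96% of it. It is separated from the densest window only by 3R:4000001-5000000, which held 51 regions. Both 3R:15000001-16000000 and 3R:26000001-27000000 had 25 combined regions. The first of these kept 24 in each replicate, with 23 of its 25 regions found in both lists (92.0%). The other kept 18 and 19, and 16 of its 25 (64.0%) were found in both, so the same combined count stood on unequal replicate support. Counted from the sparsest, 3R:15000001-16000000 held rank 5 in replicate 1 and rank 6 in replicate 2. Its place among the 3 sparsest windows thus rests on the combined list. The windows 3R:3000001-4000000 and 3R:26000001-27000000 tied for rank 1 in both replicate lists.

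Divided into 5 equal parts, numbered from the centromere, the arm was fullest in parts 1 and 4. Part 1 had 46.0 regions per Mb (40.6 to 52.0) and part 4 had 44.4 (39.1 to 50.3). Part 2 had 38.9 (33.9 to 44.4), part 3 had 34.8 (30.0 to 40.0) and part 5, next to the telomere, had 32.6 (28.0 to 37.7). From part 1 to part 5, replicate 1 gave 39.6, 32.8, 29.6, 36.0 and 27.6 regions per Mb, and replicate 2 gave 41.6, 35.3, 30.8, 39.6 and 28.5. The parts stood in the same order of density in all 3 lists. The centromere-proximal 50% of the arm held 572 regions and the distal 50% held 526, a ratio of 1.09, with 1.11 in replicate 1 and 1.10 in replicate 2.

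The 2 ends of the arm were unequal. The 2 Mb next to the centromere held 110 regions, or 55.0 per Mb (45.2 to 66.3), and the 2 Mb next to the telomere held 59, or 29.5 per Mb (22.5 to 38.1). Replicate 1 had 97 and 49 regions there, and replicate 2 had 102 and 52, so the intervals of the ends did not overlap in any list at this length. On the other large arms the end next to the centromere had the lower count. It was 69 against 106 on 2R, 57 against 77 on 2L, 42 against 101 on 3L and 55 against 115 on X, and each replicate list gave the same direction on all 4. The intervals of the 2 ends overlapped on 2L in all 3 lists and on 2R in the combined list only. On 3L and X they did not overlap in any list. Over the last 1 Mb at each end 3R held 50 and 32 regions, with intervals of 37.1 to 65.9 and 21.9 to 45.2 per Mb. Over 5 Mb it held 215 and 165, with intervals of 37.4 to 49.1 and 28.2 to 38.4 per Mb. At both of these lengths the intervals overlapped in all 3 lists. At 5 Mb the direction on 2L turned in the combined list (180 next to the centromere and 174 next to the telomere) and in replicate 1 (154 and 145), but not in replicate 2 (157 and 159). These lengths were chosen after values were seen, and the difference between arms was not tested. How much of each arm's pericentromeric sequence belongs to the assembled arm, and how much to its separate heterochromatin sequence, was not analysed.

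**Figure D2:**
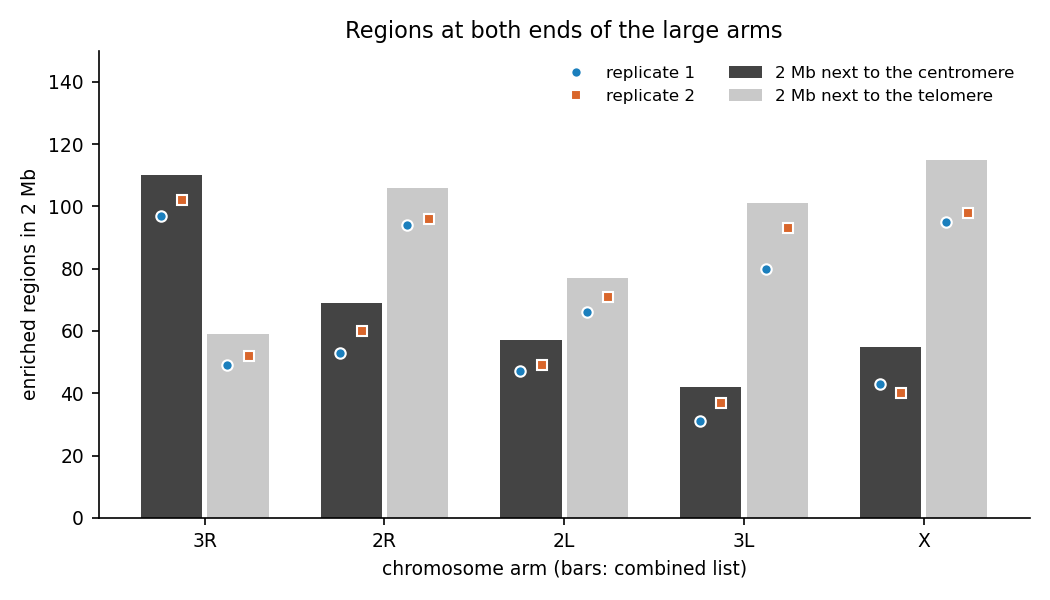
Number of enriched regions (vertical axis) in the 2 Mb next to the centromere (dark bars) and the 2 Mb next to the telomere (light bars) of each large arm (horizontal axis). Bars are the combined list, circles replicate 1 and squares replicate 2; 3R has 110 regions next to the centromere and 59 next to the telomere.

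Scores in the 2 Mb next to the centromere were close to or somewhat below those of the whole arm. The score is the authors' value per region, its scale is not stated, and it is compared here within a list only. In the proximal 2 Mb, 37 of 110 regions (33.6%) scored 2 or more, against 35.2% over the arm. The median score there was 0.860 against 0.917 over the arm in the combined list. It was 1.13 against 1.43 in replicate 1 and 1.19 against 1.46 in replicate 2. The arm's list began close to the start of the sequence, with a region at 3R:12218-13874 that scored 0.273. It was found in replicate 1 at 3R:12249-13726 and in replicate 2 at 3R:12248-13688. At the other end the last region, 3R:27892956-27895804, scored 4.21 and ranked 30 of 1098. Beyond it 9.25 kb of the arm remained.

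Distances between neighbours were unequal, and long empty stretches took up much of the arm. Neighbouring midpoints were a median of 10094 bp apart (25th percentile 5148 bp, 75th percentile 27063 bp) but 25416 bp apart on average. The median was 12137 bp in replicate 1 and 11033 bp in replicate 2. Of the 1097 neighbouring pairs, 49.8% were within 10000 bp and 24.1% within 5000 bp (21.6 to 26.7). The share within 5000 bp was 20.2% in replicate 1 and 21.9% in replicate 2. The class of 5 to 10 kb held 25.7% of pairs in the combined list and 24.6% and 24.7% in the replicates. Per kb of distance the class of 2.5 to 5 kb was fuller, with 94.0 pairs against 56.4 in the combined list.

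**Figure D3:**
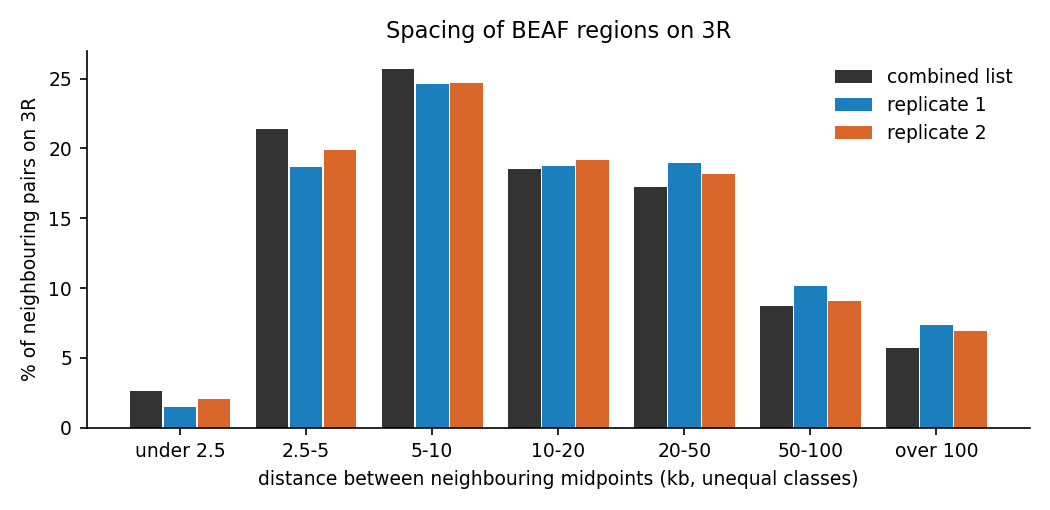
Percent of neighbouring pairs of 3R regions (vertical axis) by the distance between their midpoints (horizontal axis, classes of unequal width). Dark bars are the combined list, blue bars replicate 1 and orange bars replicate 2; the class of 5 to 10 kb holds 25.7% of the combined pairs and the class over 100 kb holds 5.74%.

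Stretches of more than 100 kb without a region numbered 61 and summed to 9.31 Mb, or 33.4% of the arm. Replicate 1 had 66 of them (10.7 Mb) and replicate 2 also had 66 (10.6 Mb). They occurred in all 5 parts of the arm, from 10 in parts 1 and 4 to 15 in part 5. In 100-kb bins the same unevenness showed as 33 empty bins of 279 and as 66 bins (23.7%) that together held 50% of the regions. The fullest bin, 3R:11100001-11200000, held 15 regions, with 12 in replicate 1 and 13 in replicate 2.

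The longest empty stretch was 279 kb, at 3R:18581403-18860481. The regions on its 2 sides were weak, with scores of 0.336 and 0.110, and both were found in replicate 2 only. In replicate 1 the empty stretch there reached 299.6 kb. The next was 247 kb at 3R:23903453-24150049, which extended to 336 kb in replicate 2, where the flanking weak region was missing. At 3R:11375245-11617201 lay 242 kb with nearly the same length in all 3 lists. It ended at a region that scored 4.42. Next in length were 223 kb at 3R:19265389-19488399 and 216 kb at 3R:6784801-7000313. No replicate region lay inside any of the 5. The longest stretches on the other large arms were between 338 kb on X and 478 kb on 2L, so the 279 kb of 3R was the shortest of the 5 maxima, in the combined list. In the replicate lists the maximum of 3R was likewise below that of each other arm. By number, however, 3R, the longest arm, had the most stretches over 100 kb in the combined list, 61 against 34 on 2R to 57 on 2L. They took up 33.4% of 3R, against 24.0% of 2R, 25.9% of X, 31.7% of 3L and 40.8% of 2L.

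Regions beside a stretch of more than 100 kb numbered 115, with a median score of 0.604 against 0.963 for the 983 others. Of the 115, 17 (14.8%) had a neighbouring midpoint within 5000 bp, against 43.9% of the others, a share that is lowered because 1 side is empty by definition. Chosen after its values were seen, 1 place had a dense run directly beside an empty stretch. This run of 5 regions at 3R:12464432-12483008 spanned 18.6 kb, and 4 of its 5 regions scored 2 or more. Immediately beyond its last region, 3R:12480310-12483008 (score 2.11), 199 kb followed without an enriched region. A single weak region, 3R:12682392-12684228 (score 0.291, found in replicate 2 only), then stood 113 kb from the next midpoint. That next region, 3R:12795038-12796662, scored 0.0504 and was among the 5 narrowest found in both replicates. In replicate 1, which lacks the weak region, the empty stretch was 312 kb long. On its far side strong regions resumed with 3R:12826742-12829462, which scored 3.92.

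Runs of regions with neighbouring midpoints within 5000 bp were short. They took in 449 regions (40.9%) in 185 runs, and 649 regions had no neighbour that close. Of the runs, 127 had 2 members, 42 had 3, 11 had 4 and 5 had 5, and no run was longer. Replicate 1 had 145 runs and replicate 2 had 164, again with at most 5 members. The 5 longest included the run at 3R:12464432-12483008. The others spanned 18.7 kb at 3R:5578862-5597582, 18.5 kb at 3R:4125684-4144164, 16.2 kb at 3R:16951712-16967918 and 13.7 kb at 3R:8247326-8261000. All 5 members of the run at 3R:4125684-4144164 were found in both replicates. The runs that start at 3R:5578862, 3R:16951712 and 3R:8247326 each held 1 region found in neither.

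Some neighbours nearly touched. In 121 pairs less than 1000 bp separated the end of a region from the start of the next, with a median of 401 bp and a minimum of 1 bp. Of these pairs, 63 joined a region scoring 2 or more to one scoring less, 45 had both below 2 and 13 had both at 2 or more. Mixed pairs were thus 52.1% of these 121, against 42.4% of the other 976 neighbouring pairs, a difference that was not tested. The median score was 2.64 for the higher member and 0.441 for the lower, against 2.37 and 0.348 in the other pairs. Both members were found in both replicates in 85 pairs, and the same count was not made for the other pairs. Replicate 1 listed 84 of the 121 as separate regions, and in 1 pair a single region overlapped both members. Replicate 2 listed 99 separately, and in 6 a single region overlapped both. An overlap of 1 bp with each member was enough, so such a region need not span the pair. In the 1 pair of replicate 1, 3R:7260770-7264534, the replicate 1 region ended at position 7262329, short of most of the second member. Whether the weaker member marks a binding site of its own or the shoulder of the stronger was not tested.

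Isolated regions were few. More than 50000 bp separated 32 regions (2.91%, exact 95% binomial interval 2.00 to 4.09) from both neighbours. Replicate 1 had 43 (4.65%) and replicate 2 had 29 (2.96%). Of the 32, 21 were shared by both replicates, 6 belonged to 1 replicate and 5 to neither, where 80.3% of all 3R regions were found in both. The median score of the 32 was 0.335, against 0.917 over the arm. The farthest from any neighbour was 3R:1980046-1982094 (score 0.415), 141386 bp from the nearer midpoint. It was followed by 3R:3171456-3173388 (0.225), at 127562 bp, and 3R:11373250-11375244 (0.329), at 126667 bp. All 3 were found in both replicate lists. Of the 5 isolated regions that scored 2 or more, 4 scored between 2.10 and 2.20. The remaining one, 3R:15227722-15231034, singled out after its values were seen, scored 4.06, with 110.2 kb to one neighbour and 179.9 kb to the other. Its score was 4.11 in replicate 1 and 4.09 in replicate 2.

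The median 3R region was 2367 bp wide. Replicate 1 had a median of 2414 bp, and replicate 2 had 2441 bp. A single motif is far shorter, so a region marks a neighbourhood and not the bound base. The middle 50% of the combined regions lay between 1928 and 2859 bp, and 49.2% of them were over 2000 and up to 3000 bp wide. Widths ran from 1005 to 8881 bp. The narrowest 3R regions of the replicate lists were 1309 and 1306 bp, and 57 combined regions were narrower than both.

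The widest region was 3R:5334854-5343734, 8881 bp with a score of 3.70, in the densest window of the arm. Each replicate listed 2 separate regions under it. Next in width were 3R:222638-230544 (7907 bp) and 3R:4877318-4884900 (7583 bp). They were followed by 3R:7231712-7239204 (7493 bp) and 3R:13507238-13514562 (7325 bp). Only the last of these 5 matched a single region of nearly equal width in both replicates, 7192 and 7290 bp. Regions over 5000 bp numbered 32 (2.91%, 2.00 to 4.09), against 6.85% on X (5.41 to 8.52) and 3.35 to 3.86% on 2L, 2R and 3L. All 32 were found in both replicates, 10 of them covered several regions of a replicate, and 25 scored 2 or more.

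At the other extreme, the 5 narrowest regions found in both replicates were 1513 to 1657 bp wide. The narrowest, 3R:7260770-7262282, shared only its last base with the replicate 2 region at 3R:7262282-7264525. In replicate 1 it was found at 3R:7260985-7262329. The other 4 were 3R:24949934-24951492, 3R:27637544-27639148, 3R:12795038-12796662 and the first region of the arm. Their combined scores ranged from 0.0504 to 0.277.

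Width went with score, but not in every class of regions. Over all 1098 regions Spearman's rho between width and score was 0.80, with 0.79 in replicate 1 and 0.80 in replicate 2. Among the 98 regions found in neither replicate it was negative, at -0.72, and among the 882 found in both it was 0.70. Width and score come from the same reads, and regions are not replicates, so these are descriptions. From the lowest to the highest score quartile the median width was 1729, 2107, 2676 and 2833 bp.

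**Figure D4:**
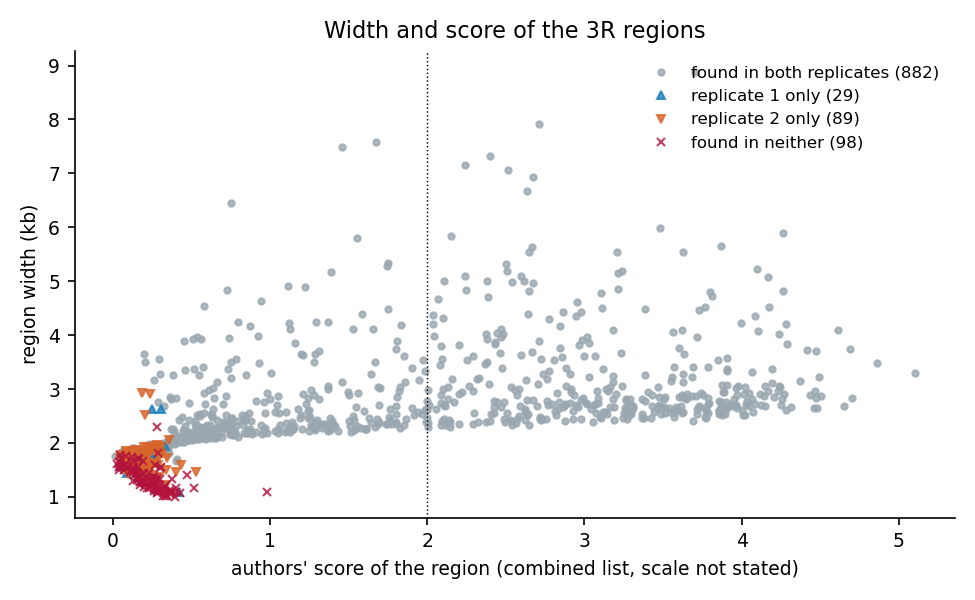
Width of each 3R region in kb (vertical axis) against the authors' score in the combined list (horizontal axis, dotted line at 2). Grey circles were found in both replicates, triangles in 1 replicate and crosses in neither; all regions scoring 2 or more are grey, and the crosses are at most 2299 bp wide.

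Scores on 3R formed a peak of weak regions and a long, even shoulder of stronger ones. In classes of 0.25 the combined list had 200 regions from 0 to 0.25 and 218 from 0.25 to 0.5. Between 1 and 4 each class held 34 to 47 regions, and the class from 4.25 held 18. Regions scoring 2 or more numbered 386 of 1098 (35.2%, 32.3 to 38.1), 376 of 924 in replicate 1 (40.7%) and 411 of 981 in replicate 2 (41.9%). Below 0.25 the replicate lists had 59 and 28 regions. Whether a score means the same in each list is not stated, so these counts do not separate missing regions from regions scored differently. All 386 combined regions scoring 2 or more were found in both replicates, against 496 of the 712 below (69.7%). In the lowest score quartile 94 of 275 were found in both (34.2%, 28.6 to 40.1).

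**Figure D5:**
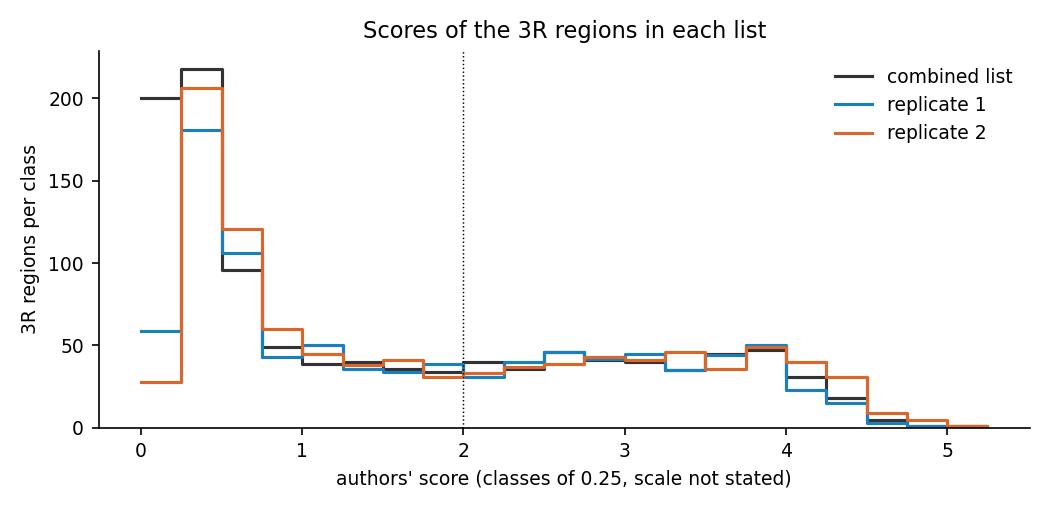
Number of 3R regions (vertical axis) in score classes of 0.25 (horizontal axis) in the combined list (dark), replicate 1 (blue) and replicate 2 (orange). The combined list has 200 regions in the lowest class, where replicate 1 has 59 and replicate 2 has 28, and the dotted line marks a score of 2. Whether a score means the same in each list is not stated.

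Strong regions occurred in every 1-Mb window of the arm, at least 3 in each. The nearest midpoint was a median of 5896 bp away for the 386 regions scoring 2 or more and 5816 bp for the 712 others. Pairs of neighbours that both scored 2 or more made up 13.4% of all pairs, and 12.4% would be the product of the single shares. The share of regions scoring 2 or more ranged from 8.33% in 3R:9000001-10000000, where 3 of 36 did so, to 57.6% in 3R:21000001-22000000, with 19 of 33. These windows were singled out after their values were seen. Their median scores were 0.388 and 2.25 in the combined list, 0.439 and 2.59 in replicate 1, and 0.477 and 2.79 in replicate 2. The number of regions in a window and their median score were only loosely related (Spearman's rho = 0.20 over 27 windows).

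The 10 highest-scoring regions found in both replicates were among the first 13 of the arm in replicate 1 and the same 10 as in replicate 2. The first was 3R:1472900-1476188, which scored 5.10 when combined, 5.03 in replicate 1 and 5.29 in replicate 2. It lies in the third densest window, and a single region separates it from the sixth in rank, 3R:1483676-1487768 (4.61). Ranks 2 to 5 were 3R:24887356-24890842 (4.86), 3R:7787302-7790138 (4.70), 3R:20947164-20950914 (4.69) and 3R:6612750-6615428 (4.65). The first 4 held the same ranks in both replicates. Over the 10, scores were 4.31 to 5.03 in replicate 1 and 4.70 to 5.29 in replicate 2.

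The remaining members of the 10 were 3R:25870566-25873442 (4.50), 3R:16888946-16892164 (4.49), 3R:25864058-25866698 (4.48) and 3R:21083146-21085978 (4.47). The next score on the arm, of the 11th region, was also 4.47. A single region also lay between the seventh and the ninth. Each of the 10 had a neighbour with its midpoint 2775 to 6288 bp away, and their widths were 2641 to 4093 bp. Of the 10, 4 lay in the proximal 50% of the arm and 6 in the distal 50%.

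The 98 regions found in neither replicate were weak and narrow, with a median score of 0.246 and a median width of 1291 bp. Of these 98, 50 lay in the proximal and 48 in the distal 50% of the arm, where all regions numbered 572 and 526. In parts 1 to 5 of the arm the 98 numbered 21, 19, 15, 26 and 17, and 1-Mb windows held 0 to 8 of them. The highest-scoring was 3R:21942178-21943262 (1085 bp, score 0.981), well above the next, 3R:22344612-22345780 (0.516) and 3R:7204300-7205700 (0.473). By comparison the 89 regions found in replicate 2 only had a median score of 0.202 and a median width of 1705 bp. Conversely, 3 replicate 1 regions and 5 replicate 2 regions on the arm had no enriched region in the combined list, with scores of at most 0.406 and 0.507. No enriched region there need not mean no listed region. At 2 places a combined region typed as depleted overlapped an enriched replicate region, as described below.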

How the data were processed

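Chromatin immunoprecipitation and input DNA were sequenced from whole embryos. Reads were aligned with Bowtie 0.12.7, per the submitters' processing notes. Coordinates refer to FlyBase release 5 and arm lengths are stated, per the file headers. The authors deposited region lists with a score per region. The score is above 0 for regions typed as enriched, and its scale is not given in the sources used here, nor are the peak caller, its thresholds, the use of input or the way replicates were combined. These steps could change region number, width and minimum size. No read counts are given, so depth is unknown.

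From the lists, widths, midpoints, neighbour distances and counts in windows of 1 Mb and bins of 100 kb were computed with Python 3.11.15, numpy 2.4.6, scipy 1.17.1 and pandas 2.3.3. Overlap meant at least 1 bp. Poisson and Clopper-Pearson 95% intervals cover counting error only. The calculations of gaps, window counts and overlaps were tested on simulated positions, and the confidence intervals were not. Regions named were the 10 highest in score, the 5 widest, the 5 narrowest in both replicates, the 3 densest and sparsest windows, the 5 longest empty stretches and runs, the 3 most isolated, the first and last, and the 3 highest-scoring in neither replicate. Alternatives were each replicate's list, regions found in both replicates, the higher-scoring 50%, a reciprocal overlap of 50%, shifted windows and other distances. Members and measures were chosen with earlier results of these data known. Gene names, sequences, motifs and the planned look at genes near the highest regions were left out, because the reference at hand refers to another release.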

Additional observations from a re-analysis of the deposited data

Results flagged for a closer look

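On 3R the combined list typed 5 regions as depleted, and the comparisons above leave them out. They are given because they are listed data outside the enriched regions, and no expected number exists to compare them with. Neither replicate list held a depleted region on the arm. The 5 lay at 3R:660284-661984 (score -0.0451), 3R:9086808-9088476 (-0.000797), 3R:9937092-9938894 (-0.0350), 3R:14210582-14212364 (-0.00627) and 3R:16088992-16090516 (-0.0165). The first overlapped the lowest-scoring enriched region of replicate 1 on the arm, 3R:660292-662030 (0.0624). The second overlapped an enriched region in both replicates, with scores of 0.237 in replicate 1 and 0.255 in replicate 2. The remaining 3 overlapped none. All 5 scores were close to 0. That they lie below the lowest enriched score on 3R, 0.0113, follows from their negative sign, since enriched regions score above 0.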

How the results depend on the processing

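For 10 results 33 alternative values were computed. Of these, 7 moved by less than the SD between replicates, or stayed within the counting interval where no replicate value exists, and 26 moved by more. That SD comes from 2 lists that are themselves among the alternatives, so the tally does not measure stability. For the proximal-to-distal ratio the SD was 0.00974, and a change from 1.09 to 1.10 counted as a move. The proximal-to-distal ratio stayed above 1 in all 5 of its alternatives. The variance-to-mean ratio, also read against 1, was 3.12 to 4.22 in its alternatives. The replicate lists alone, each leaving out the other replicate, gave 33.1 to 35.2 regions per Mb, a proximal-to-distal ratio of 1.10 to 1.11 and a variance-to-mean ratio of 3.16 to 4.20. They gave a median neighbour distance of 11033 to 12137 bp, a longest empty stretch of 312 to 336 kb and a median width of 2414 to 2441 bp. The share scoring 2 or more was 40.7 to 41.9%, the share of neighbours within 5000 bp 20.2 to 21.9%, and the isolated share 2.96 to 4.65%. With only regions found in both replicates there were 31.6 regions per Mb, a ratio of 1.12, a median distance of 12647 bp and a median width of 2551 bp. Among the higher-scoring 50% the ratio was 1.11, the longest empty stretch 395 kb and the share found in both replicates 99.8%. Measured from end to next start, the median distance was 7485 bp. By construction other thresholds moved the shares, to 6.47% of neighbours within 3000 bp, 49.8% within 10000 bp, and 7.10% of regions isolated by more than 30000 bp. The direction of some other moves is fixed in the same way. A subset of the regions has a lower density, and it cannot shorten the longest empty stretch. Distances from end to next start lie below those between midpoints. For the remaining moves the cause was not tested. No paired analysis was possible because only the ChIP samples have region lists and no comparison between groups was made, although input and ChIP samples share replicate numbers. Unknown read depth limits what the weakest regions can show.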
